A study of Mus musculus with 2 samples.

Results

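The 40 mitosis and spindle genes described here are the genes of cell division that act between entry into mitosis and the separation of the daughter cells. They were picked by symbol from a table of 35275 genes, and all 40 were found, each in 1 row. The table holds RNA sequencing reads of TEa cells from 2 libraries of spleen cells, 1 per group. TEa cells are CD4 T cells of C57BL/6 background whose transgenic receptor is specific for an I-E alpha peptide, an antigen of Balb/c mice. In the exhausted group they had been adoptively transferred into CB6F1 mice, a cross of these strains that carries the antigen in its own cells. The effector group had been transferred into WT C57BL/6 mice that received a Balb/c skin transplant. The series speaks of abundant and of moderate antigen without tying these words to the groups. The donor strain, the organ and the sort are shared by the groups, but recipient strain and graft both differ between them and cannot be told apart from the amount of antigen. Group names are the submitters' titles, and the labels do not give the time after transfer, the age of the mice or the number of mice per library. The exhausted library had 8508129 counted reads and the effector library 7844445. With 1 library per group nothing below has a replicate check, no p-value was computed, and each interval is an exact 95% interval that covers counting error only.

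A dividing cell first builds up cyclin B and activates the kinase CDK1, which drives chromosome condensation and spindle formation. Kinetochores then attach the chromosomes to the spindle while the spindle checkpoint holds back the anaphase-promoting complex, the ubiquitin ligase that ends mitosis by destroying cyclin B and securin. After the chromosomes separate, the central spindle places a contractile ring that splits the cell. T cells that meet antigen divide quickly. Because many of these transcripts, though not all to the same degree, rise in G2 and fall after division, their level in a bulk sample is widely read as a measure of cycling cells. In such a sample fewer cells in mitosis and less RNA per cell cannot be told apart. Many promoters of this kind share the cell cycle genes homology region (CHR), the letters TTTGAA, to which the DREAM and MuvB complexes bind, and they often carry CCAAT boxes, the site of NF-Y, a short way upstream.

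Promoter windows from RefSeq (GRCm38.p6, the assembly behind mm10), which run from 250 bases before to 50 bases after a start site, were matched by symbol for 33 of the 40 genes. Both strands were searched for the CHR (TTTGAA), for its variant (TTTAAA) and for the CCAAT box (CCAAT). The CHR was present in 26 of the 33 windows (78.8%), against 17.9% of all 32851 windows of that length. In 25 of these 26 the nearest CHR began within 100 bases of the start site, a share that was not computed for all windows. The variant was in 9 windows (27.3%, against 13.2% of all), the CCAAT box in 26 (78.8%, against 37.4%), and the CHR and CCAAT box together in 23 (69.7%, against 6.95%). Motifs overlapped each other in 2 of the windows, those of Cdca8 and Ube2c. The CHR was in 14 of the 16 windows of genes whose ratio of exhausted to effector lay above 1 and in 12 of the 17 with a ratio below 1, so windows of both kinds held it. The following windows are those of the 3 genes with the highest ratio and the 3 with the lowest among the 33, with every match in capitals, read 5′ to 3′ on the strand of the gene.
Anln, chr9:22389157-22389456, minus strand: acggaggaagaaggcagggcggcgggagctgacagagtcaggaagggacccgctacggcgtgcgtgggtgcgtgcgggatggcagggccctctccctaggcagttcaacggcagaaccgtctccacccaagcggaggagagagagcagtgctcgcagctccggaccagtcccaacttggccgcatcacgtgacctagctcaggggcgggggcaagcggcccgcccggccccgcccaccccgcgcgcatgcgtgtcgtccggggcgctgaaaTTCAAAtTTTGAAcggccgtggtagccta
Cdk1, chr10:69352863-69353162, minus strand: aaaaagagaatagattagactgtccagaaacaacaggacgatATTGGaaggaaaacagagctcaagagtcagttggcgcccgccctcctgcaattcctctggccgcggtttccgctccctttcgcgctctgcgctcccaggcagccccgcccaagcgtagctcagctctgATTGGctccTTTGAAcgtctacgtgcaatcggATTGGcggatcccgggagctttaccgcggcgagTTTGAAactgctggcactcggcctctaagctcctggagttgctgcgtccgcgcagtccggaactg
Bub1b, chr2:118597961-118598260, plus strand: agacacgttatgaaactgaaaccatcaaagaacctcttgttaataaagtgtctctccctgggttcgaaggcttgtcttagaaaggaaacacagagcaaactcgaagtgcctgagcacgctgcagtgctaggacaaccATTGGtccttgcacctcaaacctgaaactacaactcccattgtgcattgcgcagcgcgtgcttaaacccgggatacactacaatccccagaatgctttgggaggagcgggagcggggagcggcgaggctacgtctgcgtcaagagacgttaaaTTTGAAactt
Ccnb2, chr9:70421505-70421804, minus strand: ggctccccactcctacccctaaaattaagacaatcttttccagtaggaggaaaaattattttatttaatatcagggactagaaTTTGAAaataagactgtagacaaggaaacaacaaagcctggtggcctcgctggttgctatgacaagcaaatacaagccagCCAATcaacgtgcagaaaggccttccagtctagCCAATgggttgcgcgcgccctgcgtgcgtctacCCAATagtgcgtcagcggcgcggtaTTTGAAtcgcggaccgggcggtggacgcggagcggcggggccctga
Ccnb1, chr13:100786437-100786736, minus strand: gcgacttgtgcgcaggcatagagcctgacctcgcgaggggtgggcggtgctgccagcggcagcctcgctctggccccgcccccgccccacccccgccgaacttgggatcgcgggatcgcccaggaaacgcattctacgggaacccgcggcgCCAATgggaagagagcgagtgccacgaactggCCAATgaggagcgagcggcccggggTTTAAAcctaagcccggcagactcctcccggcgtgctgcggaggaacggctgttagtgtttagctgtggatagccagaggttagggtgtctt
Kif23, chr9:61946750-61947049, minus strand: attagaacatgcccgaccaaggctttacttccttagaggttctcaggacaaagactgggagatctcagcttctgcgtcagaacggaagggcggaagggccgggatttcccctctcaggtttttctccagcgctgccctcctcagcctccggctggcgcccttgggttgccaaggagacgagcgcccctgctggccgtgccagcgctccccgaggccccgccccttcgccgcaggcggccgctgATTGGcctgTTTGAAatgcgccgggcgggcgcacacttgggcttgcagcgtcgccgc
The windows of Cdk1 and Ccnb2 each hold 2 CHR matches and 3 CCAAT boxes, and that of Anln holds 2 CHR matches side by side. In the Ccnb1 window the CHR letters were not found and the variant stands in their place, whereas Kif23 has 1 CHR and 1 CCAAT box close together around the start site. A match is a description of these letters and says nothing of binding in these cells.

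As a group the mitotic genes were at nearly the same level in both libraries, while single members lay on either side. Their reads summed to 12902 in the exhausted library and 11150 in the effector library, a ratio of 1.07 after scaling (1.04 to 1.10). The median log2 ratio of exhausted over effector was 0.04, beside -0.002 for the 9999 genes whose reads in the 2 libraries came to 50 or more, a minimum that all 40 members passed. Ratios lay above 1 for 21 members, where 49.8% of all measured genes did so, and below 1 for 19. Counts were scaled by the trimmed mean of M-values (TMM), and a gene was called higher or lower when the scaled ratio reached 2-fold and its interval excluded equality. By that rule 0 of 40 members were higher, where 6.65% of all measured genes were, and 1 was lower, Kif23, where 7.07% were. At 1.5-fold 2 members were higher (Stmn1 and Anln, 5% of members, against 13.7% of measured genes) and 3 were lower (Kif23, Aurkb and Ccnb1, 7.5% of members, against 13.6%). The intervals of 10 members lay wholly above equality (31.3% of measured genes did so) and those of 7 wholly below it (31.6% of measured genes), and 23 held it. A total of 20 members lay within 1.2-fold of equality, 50% of them, beside 42.5% of measured genes.

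**Figure D1:**
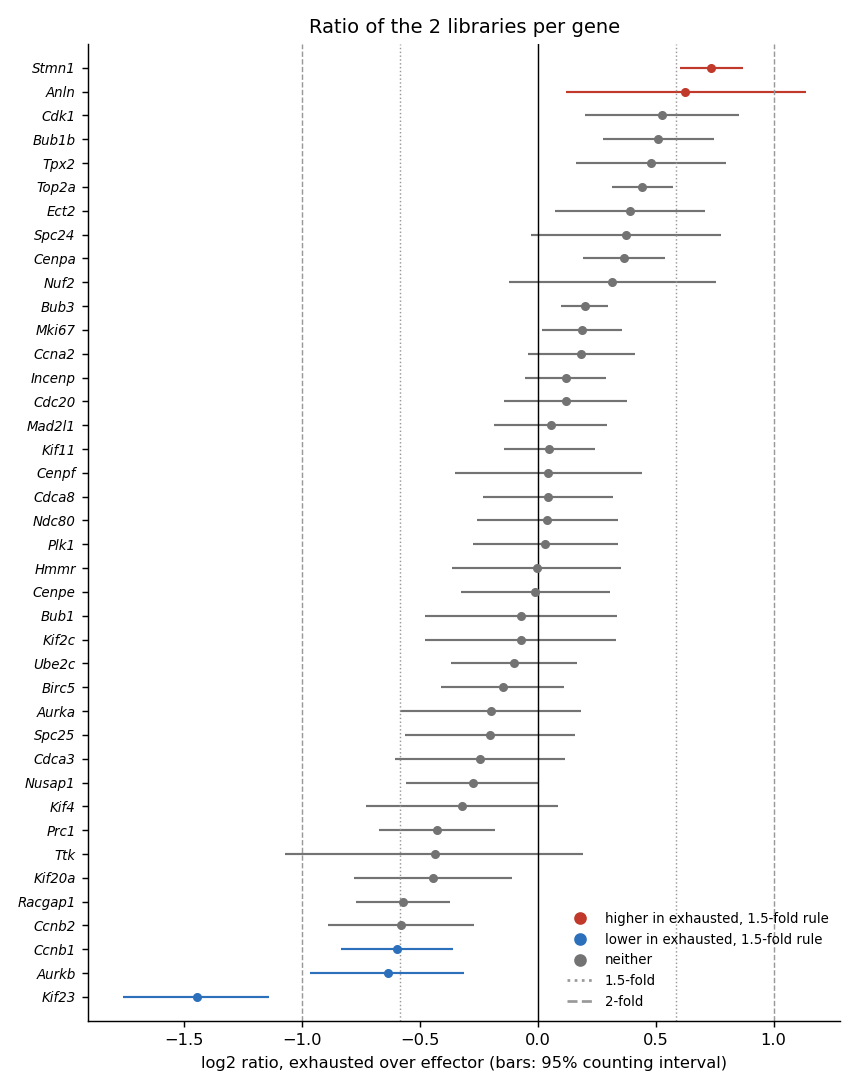
Each point is the log2 ratio of exhausted over effector for 1 of the 40 genes, ordered from highest to lowest, with its 95% counting interval as a bar and lines at 1.5-fold and 2-fold. Stmn1 stands highest at 0.74 and Kif23 lowest at -1.44, the only point beyond the 2-fold line.

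Levels per length show how abundant the RNA of each gene was within a library. They are reads divided by the table's gene length and by the library's total, in the usual RPKM unit. The members ranged between 1.21 and 143 RPKM in the exhausted library, with a median of 8.15, and between 1.18 and 94.5 RPKM in the effector library, with a median of 9.06. The median member thus stood at the 33.3 percentile of levels among measured genes in the exhausted library and at the 36.3 percentile in the effector library. Stmn1, Bub3 and Cenpa were the most abundant and Cenpf, Anln and Ttk the least abundant in both libraries. With exon union lengths of GENCODE M21 Stmn1 and Bub3 stayed on top, but Cenpa, at 13.3 RPKM in exhausted and 10.3 RPKM in effector cells, stood below Top2a, Incenp and Cdc20. Mki67, the gene of the Ki-67 protein used to stain cycling cells, had 7.38 RPKM in exhausted and 6.50 RPKM in effector cells.

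**Figure D2:**
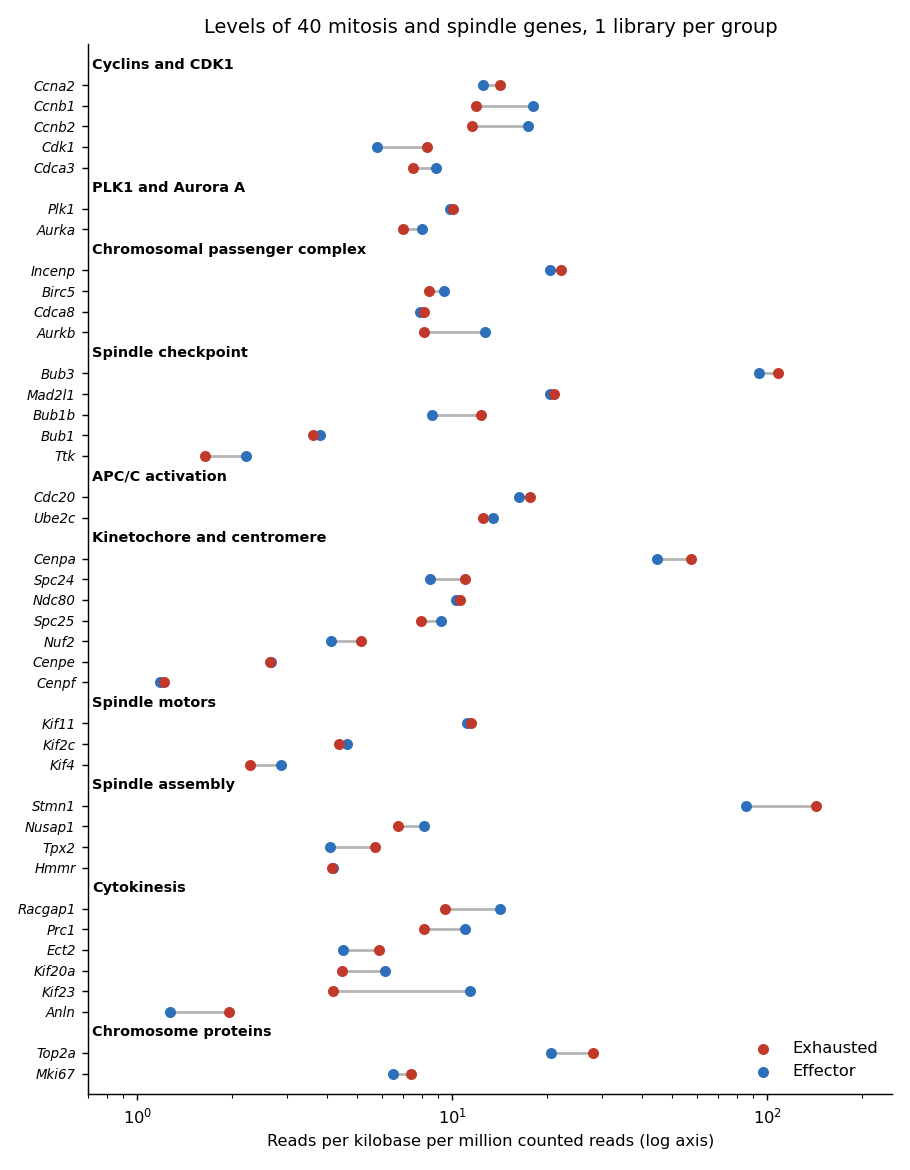
Levels in RPKM on a log axis, grouped by role, with the exhausted library in red and the effector library in blue, 1 library each. The widest gap within a gene is that of Kif23, at 4.19 in the exhausted and 11.4 in the effector library.

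Among the cyclins and their kinase, the B-type cyclins and Cdk1 lay on opposite sides. Cdk1, whose product is the kinase that starts mitosis, had 204 reads in the exhausted library against 131 in the effector library, a ratio of 1.44 (1.15 to 1.81) that stayed under 1.5-fold. Ccna2, the gene of cyclin A2 that acts in S phase and G2, had 359 against 292 reads (ratio 1.14, 0.971 to 1.33), and its exons overlap Exosc9 on the other strand. Ccnb1, which encodes the main mitotic partner of CDK1 (chromosome 13, 100778650 to 100786570), had 252 reads in exhausted against 352 in effector cells and was 1.51-fold lower (1.28 to 1.78), a value that upper quartile scaling put under the 1.5-fold rule. Its relative Ccnb2 had 152 against 210 reads (1.49-fold less, 1.21 to 1.85), just under the 1.5-fold rule. The interval of Cdk1 overlaps that of neither B-type cyclin. Within a library, the level of Ccnb1 was 1.43 times that of Cdk1 in exhausted and 3.12 times in effector cells, and that of Ccnb2 was 1.40 and 3.002 times that of Cdk1. Such ratios between genes depend on the gene lengths used, here those of the table. With exon union lengths of GENCODE M21, Cdk1 had 4.86 RPKM in exhausted and 3.38 RPKM in effector cells. By the same lengths Ccnb1 had 7.02 and 10.6 RPKM, and Ccnb2 11.7 and 17.5 RPKM. Cdca3, whose product promotes entry into mitosis, had 126 against 138 reads and an interval that held equality. The pseudogene Ccnb2-ps has a row of its own with 7 and 4 reads, and how reads shared with Ccnb2 were assigned is not known.

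Plk1 and Aurka did not pass 1.5-fold, whereas the kinase gene Aurkb did. Plk1, the gene of the kinase that acts at centrosomes, kinetochores and the midzone, had 188 reads in the exhausted and 170 in the effector library (ratio 1.02, 0.826 to 1.27). Aurka, the gene of the spindle pole kinase Aurora A, had 113 against 120 reads (ratio 0.871, 0.667 to 1.14). Aurkb encodes Aurora B, the enzyme of the chromosomal passenger complex, which corrects wrong attachments and later moves to the midzone (chromosome 11, 69045647 to 69051664). It had 135 reads in exhausted against 194 in effector cells and was 1.55-fold lower (1.24 to 1.95). The other subunits did not pass 1.5-fold, and their differences from Aurkb were not tested. Incenp, the scaffold, had 605 against 515 reads (ratio 1.09), Cdca8, which encodes borealin and shares exon sequence with 9930104L06Rik on the other strand, 233 against 209 (1.03), and Birc5, which encodes survivin, 240 against 246 (0.902), and all these intervals held equality. The interval of Birc5 (0.752 to 1.08) overlaps that of Aurkb. In RPKM by the table's gene lengths, Aurkb stood at 0.368 times the level of Incenp in the exhausted library and at 0.621 times in the effector library.

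The spindle checkpoint, which delays anaphase until every kinetochore is attached, was mixed, with none of its 5 genes past 1.5-fold. Bub1b, whose product BUBR1 is part of the inhibitor of the anaphase-promoting complex, had 384 reads in exhausted against 249 in effector cells (ratio 1.43, 1.21 to 1.68). Bub3, the gene of the binding partner of BUB1 and BUBR1 and the most read member, had 1892 against 1524 (1.15, 1.07 to 1.23). For both, the interval lay above equality. Mad2l1, which encodes MAD2, had 310 against 276 reads, Bub1, a kinase gene, had 105 against 102, and Ttk, the gene of the kinase MPS1 at the top of the checkpoint, had 40 against 50. Ttk had the fewest reads of all 40 genes, and its ratio of 0.740 had an interval of 0.475 to 1.14. Of the genes that act on the anaphase-promoting complex after the checkpoint is met, the coactivator gene Cdc20 had 270 against 230 reads and the ubiquitin-conjugating enzyme gene Ube2c 234 against 232, both with intervals that held equality. Their exons overlap Elovl1 and Tnnc2 on the other strand, in that order.

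Summed reads of the kinetochore and centromere genes were slightly higher in the exhausted library, and again no gene passed 1.5-fold. The 7 genes summed to 1508 reads in exhausted and 1222 in effector cells (ratio 1.14, 1.06 to 1.23). Cenpa, which encodes the histone H3 variant that marks centromeres, carried much of this difference with 662 against 475 reads (1.29, 1.14 to 1.45). The intervals of the other 6 held equality, whereas 31.3% of measured genes had an interval above it. Ratios lay above 1 for 5 of the 7, beside 49.8% of measured genes. The NDC80 complex, which grips microtubules, has 4 subunits. Spc24 had 126 against 90 reads, Nuf2 105 against 78, Ndc80 198 against 178 and Spc25 127 against 135. The intervals of these 4 genes overlap each other, so their counts do not tell the subunits apart. Cenpe, the gene of a kinetochore motor, had 175 against 163 reads and Cenpf, the gene of a large fibrous kinetochore protein, 115 against 103, with ratios of 0.993 and 1.03.

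None of the 3 spindle motors passed 1.5-fold, and proteins that regulate spindle microtubules included the highest member. Kif11, the gene of the motor that pushes the poles apart, had 471 reads in exhausted and 421 in effector cells (ratio 1.03, 0.905 to 1.18). Kif2c, which encodes a microtubule depolymerase, had 106 against 103, and Kif4, the gene of a chromosome-bound motor that shares exon sequence with Pdzd11 on the other strand, had 97 against 112 (ratio 0.801, 0.604 to 1.06). Stmn1 encodes stathmin, which binds tubulin and destabilises microtubules (chromosome 4, 134468320 to 134473843). It had 1286 reads in the exhausted against 714 in the effector library and was 1.67-fold higher (1.52 to 1.83). Its level was 143 RPKM in exhausted and 85.9 RPKM in effector cells, the top of the list in the exhausted library. Tpx2, whose product activates Aurora A on the spindle, had 211 against 140 reads (1.39, 1.12 to 1.74). Nusap1, which encodes a microtubule bundler and overlaps Oip5 on the other strand, had 202 against 226 reads, and Hmmr, the gene of a spindle assembly factor, 138 against 128, and the intervals of both held equality.

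Cytokinesis genes were split in direction, and all 6 had an interval off equality. Among all measured genes 31.3% had an interval above equality and 31.6% below it. The 6 cytokinesis genes summed to 1166 reads in exhausted and 1486 in effector cells, which was 1.38-fold less in exhausted cells (1.28 to 1.49). Kif23 alone carried much of this difference. Kif23 encodes MKLP1, the motor subunit of centralspindlin, the complex that bundles the midzone and recruits the contractile ring machinery (chromosome 9, 61917280 to 61946799). It had 122 reads in the exhausted library against 307 in the effector library and was 2.72-fold lower (2.20 to 3.39). Of the 39 other members 0 had an interval that reached that of Kif23, but the gap was narrow. As ratios of exhausted to effector, the upper limit of Kif23 was 0.455 and the lower limit of Ttk 0.475. Among all measured genes the ratio of Kif23 stood at the 4.23 percentile, and 7.07% of them were lower at 2-fold. Racgap1, the other subunit of centralspindlin, had 362 against 497 reads (1.48-fold less, 1.29 to 1.71), below the 1.5-fold rule. By the table's gene lengths, the level of Kif23 was 0.441 times that of Racgap1 in exhausted and 0.808 times in effector cells. Prc1, which encodes the midzone bundling protein, had 252 against 313 reads (1.34-fold less, 1.14 to 1.59), and Kif20a, the gene of the motor that carries Aurora B to the midzone, 136 against 171 (1.36-fold less, 1.08 to 1.72). Both share exon sequence with a gene on the other strand, Prc1 with Rccd1 (163 against 252 reads) and Kif20a with Cdc23 (852 against 907 reads). No source says whether reads were counted by strand, so the values of these and of the other members named with such an overlap are uncertain. The other genes of the group lay on the opposite side. Anln, which encodes the ring scaffold anillin, had 90 reads in exhausted against 54 in effector cells and was 1.54-fold higher (1.09 to 2.20). Ect2, the gene of the exchange factor that switches on RHOA at the cleavage site, had 204 against 144 reads (1.31, 1.05 to 1.63).

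The chromosome proteins Top2a and Mki67 had more reads in the exhausted library, both under 1.5-fold. Top2a, which encodes the topoisomerase that untangles sister chromatids, had 1242 reads against 844 in effector cells (1.36, 1.25 to 1.49). Mki67 had 633 against 514 reads (1.14, 1.01 to 1.28). Top2a, Stmn1 and Bub3 hold 34.3% of the group's reads in the exhausted library and 27.6% in the effector library, so sums over the group depend on them. Without these 3 genes the log2 ratio of summed reads was -0.04, against 0.10 with them.

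**Figure D3:**
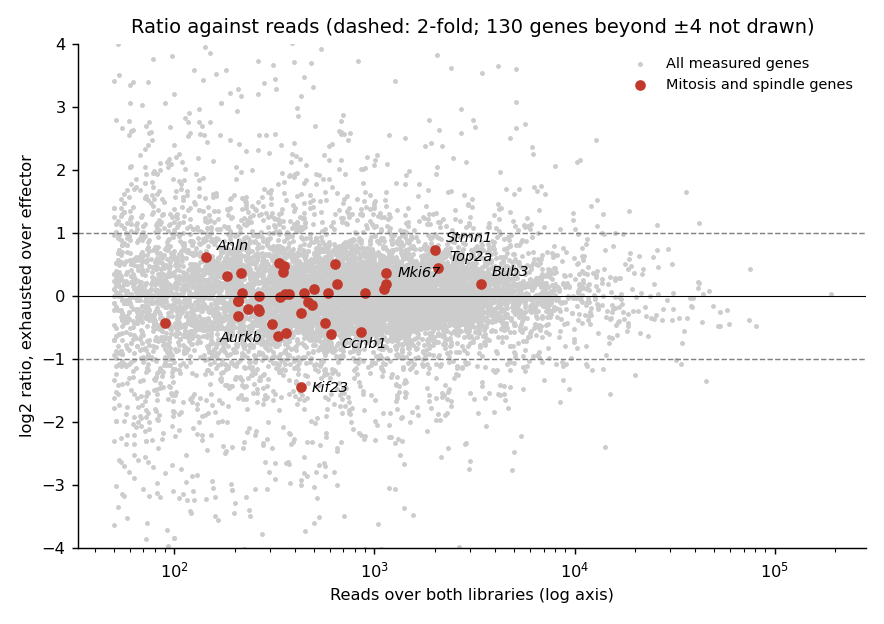
The log2 ratio of exhausted over effector against the reads over both libraries (log axis), with all measured genes in grey and the 40 mitosis and spindle genes in red. Kif23 is the single red point outside the 2-fold lines, and the genes with the most reads, Bub3, Top2a and Stmn1, lie above 0.

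Other genes of the cell cycle, from lists chosen with earlier results of these data known, place these values. Of 77 further mitotic genes 73 were measured, and their median log2 ratio was 0.07. At 2-fold 5 were higher and 2 lower, where 6.65% and 7.07% of all measured genes were. At 1.5-fold 9 were higher and 5 lower, where 13.7% and 13.6% of measured genes were. The furthest from equality was Cdc25b, the gene of a phosphatase that activates CDK1, with 3533 reads in exhausted against 1009 in effector cells (3.24-fold higher, 3.02 to 3.48). Ube2s, which extends ubiquitin chains for the anaphase-promoting complex, had 861 against 333 reads (2.39-fold higher, 2.10 to 2.72), and the mitotic kinase gene Pbk 173 against 67 (2.39-fold higher, 1.79 to 3.21). Cdc25c, another CDK1-activating phosphatase gene, had 19 against 38 reads, and Depdc1a 38 against 76, each 2.16-fold lower. The spindle motor gene Kif15, named after its value was seen, had 193 against 104 reads (1.72-fold higher, 1.34 to 2.20). A list of 15 genes of the anaphase-promoting complex, which included the coactivator gene Fzr1 but not Cdc20, was measured in full. At 1.5-fold 0 were higher and 2 lower, Anapc15 (36 against 57 reads) and Anapc11 (300 against 430). The median log2 ratio of the 15 was -0.09. The 2 lower genes are close to the 13.6% of all measured genes that were lower. Anapc10 had 191 against 252 reads, Anapc4 730 against 946 and Anapc5 1956 against 2381, under 1.5-fold.

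S-phase genes had a higher median than the mitotic genes. Of 36 listed 35 were measured, with a median log2 ratio of 0.57, and at 1.5-fold 15 were higher and 1 was lower, Chaf1b, beside 13.7% and 13.6% of measured genes. Clspn, which encodes the replication checkpoint mediator claspin, had 84 reads in exhausted against 26 in effector cells (2.99-fold higher, 1.90 to 4.83), and the nuclease gene Exo1 had 98 against 35 (2.59-fold higher, 1.74 to 3.92). The cyclin gene Ccne2 had 142 against 66 reads, at 1.99-fold, and the replication factor gene Gins1 had 47 against 22, at 1.98-fold. The helicase subunit gene Mcm5 had 1893 against 890 reads, at 1.97-fold. Summed S-phase reads were 23963 in exhausted and 15210 in effector cells, a ratio of 1.46 (1.43 to 1.49), beside 1.07 (1.04 to 1.10) for the 40 mitotic genes. Of 28 measured genes of G1 control, 6 were higher and 4 lower at 1.5-fold, where 13.7% and 13.6% of measured genes were, and their median log2 ratio was 0.30. Cdkn2d, which encodes the CDK4/6 inhibitor p19INK4d, had 479 against 1402 reads (3.17-fold lower, 2.85 to 3.52), whereas Cdkn2c, which encodes the related p18INK4c, had 174 against 54 (2.98-fold higher, 2.18 to 4.12). Ccnd2, the gene of cyclin D2, had 7061 against 3863 reads (1.69-fold higher, 1.62 to 1.76), and E2f2, which encodes an E2F transcription factor, had 282 against 546 (2.09-fold lower). Cdkn1b, which encodes the inhibitor p27KIP1, had 241 against 136 reads (1.64-fold higher, 1.32 to 2.04).

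**Figure D4:**
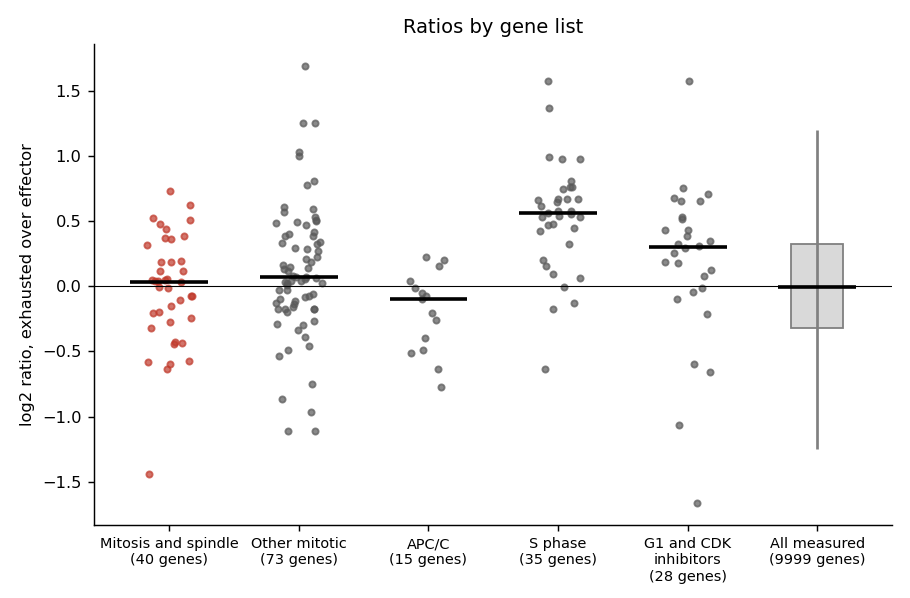
Points are log2 ratios of exhausted over effector for the measured genes of each list, with a black line at the median. The box for all measured genes spans the 25 to 75 percentiles and its line the 5 to 95 percentiles. The mitosis and spindle genes centre at 0.04 and the S-phase genes at 0.57.

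The 8 T cell genes listed summed to 64369 reads in exhausted and 43080 in effector cells, and did not all lie on 1 side. Cd4 had 15463 reads in exhausted and 9272 in effector cells, Cd3g 11641 and 7138, Cd3e 11432 and 7624, Cd28 9111 and 5102, Cd5 4333 and 2539, Cd3d 6534 and 5270 and Cd2 5483 and 5300. Thy1, with 372 against 835 reads, was 2.43-fold lower (2.15 to 2.75). Red cell precursors in spleen also divide and carry mitotic transcripts, and the 8 erythroid genes listed summed to 19 reads in the exhausted and 116 in the effector library, of which Hba-a1 had 6 and 50. Summed reads of 9 B and plasma cell genes were 3893 and 7608, of which Ighm had 3851 and 7540 and Igj 20 and 47, with the B cell marker Ms4a1 at 0 in both. The 4 CD8 T and natural killer cell genes summed to 310 and 205, with Cd8a at 0 in both, but Klrb1c had 229 against 36 reads (5.88-fold higher) and Cd8b1 81 against 164 (2.19-fold lower). The 11 myeloid and dendritic cell genes summed to 214 and 162, a direction set by Itgam (183 and 22), since the other 10 summed to 31 and 140. The 4 platelet genes had 4 and 14 reads. The part of other cells in the values of Kif23, Aurkb and Ccnb1 was not tested.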

How the data were processed

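TEa cells were sorted and frozen, RNA was taken up in Trizol, and libraries for small amounts of total RNA were built with a Takara kit, per the labels' protocols. Such kits amplify cDNA by PCR, and without molecular identifiers copies of a molecule can be counted repeatedly, so counting intervals may be too narrow. The authors deposited raw read counts as whole numbers, 1 value per gene, in 1 table with 1 column per library and, per the file headers, each gene's position and length. STAR 2.6 and mm10 are named in the submitters' processing notes. Which program counted the reads, whether it used strand and which annotation it used is not given in the sources used here. Gene lengths in the table were shorter than the union of exons in GENCODE M21 for 37 of the 40 genes. This would change RPKM values and ratios between genes within a library, but no ratio between libraries.

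Genes with a sum of 50 or more reads were measured. Counts were scaled with edgeR 4.0.16 (TMM) in R 4.3.3. Intervals are Clopper-Pearson intervals (scipy 1.17.1) of the exhausted library's part of a gene's reads, turned into ratios. A library at 0 was set to 3 reads, which affected none of the 40 genes. The calculation was tested on simulated counts with counting noise only. That is the error the intervals assume, so this checks the calculation and not whether the intervals are wide enough for these libraries. Exon overlap came from GENCODE M21. Alternatives were scaling by total counts, by upper quartile or by DESeq2 1.42.0, read minimums of 1 and 500, a prior count of 2, an interval wholly beyond the fold, and leaving out overlapping genes. Every one of the 40 genes is named, and of each other list the measured genes furthest from equality, up to 5. Chaf1b, Kif15 and cell type markers beyond that rule were named after their values were seen. Some listed marker genes are not reported here. The genes and lists were chosen with earlier results of these data known.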

Additional observations from a re-analysis of the deposited data

How the results depend on the processing

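Scaling by DESeq2 size factors, total counts or upper quartile, a read minimum of 1, a prior count of 2 and leaving out the 9 genes whose bodies overlap another gene of the count table changed none of the counts at 2-fold. They also left those at 1.5-fold as they were, except that 2 genes were lower under upper quartile scaling, against 3. Stmn1, Top2a and Plk1, which overlap short or unclassified genes of GENCODE M21 outside that table, were kept in. Single-gene log2 ratios moved by at most 0.02, and 2 of 245 values, those of Hmmr and Cenpe under upper quartile scaling, crossed 0. A minimum of 500 reads left 14 of the 40 genes, which excludes Kif23, so 0 were lower at 2-fold, and 1 was higher and 1 lower at 1.5-fold. Their median log2 ratio was 0.15 and that of their summed reads 0.20. Requiring the whole interval beyond 1.5-fold left 1 higher (Stmn1) and 1 lower (Kif23). Leaving out the 3 genes with the most reads, chosen after seeing the data, gave a median of -0.0048 and a log2 ratio of summed reads of -0.041. No paired analysis was possible because each group has 1 library and the labels give no replicate numbers.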
